A study of Rattus norvegicus with 6 samples.

Results

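The C/D-box small nucleolar RNAs (snoRNAs) described here are those encoded outside the Prader-Willi syndrome (PWS) imprinted domain. They were taken as the gene rows whose symbol is Snord followed by a number, leaving out those of the PWS domain (Snord64, Snord107, Snord115 and Snord116), of an imprinted cluster elsewhere (Snord113 and Snord114), the pre-rRNA processing snoRNAs Snord3, Snord13, Snord14 and Snord118, and Snord32 to Snord35, Snord44, Snord47 and Snord74 to Snord81. The deposited table holds 199 rows named Snord with a number among 32883 rows. After 110 were left out by number, 89 rows with 64 symbols remained, and snoRNAs listed only under clone names are not among them. The comparison asks whether these snoRNAs shift in cells that have lost Snord116 and Snord115.

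C/D snoRNAs are short stable nucleolar RNAs that assemble with fibrillarin, Nop56, Nop58 and Snu13. In this particle most of them base-pair with ribosomal RNA and direct ribose methylation at the paired site, and a few act on the U6 spliceosomal RNA or have no established target. In mammals most are cut out of introns, many of them in genes for ribosomal proteins and other parts of the translation machinery, so that their supply follows the transcription and splicing of a host gene.

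INS-1 is an insulin-secreting line from a rat insulinoma, a tumour of pancreatic beta-cells. The libraries came from 3 control lines (5-9, 2 and 16) and 3 PWS lines (3, 19-1 and 19-4), each a single clone with 1 small RNA library, grown in 7.5 mM glucose. Per the methods of the study, all 6 lines carry a human insulin transgene and a mouse Ins2 C-peptide mCherry reporter, and all lack the silent maternal PWS domain. The PWS lines also lack the active paternal domain. Line 5-9 was the source of all 5 other lines. Lines 2 and 16 hold no second deletion, the deletion in line 3 starts at another proximal site, and lines 19-1 and 19-4 were subcloned from the same edited line. The spread within the PWS group is thus partly a spread between subclones.

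The libraries held 7373691 to 16480475 recovered reads. Over the 3 control lines Snord115 and Snord116 together summed to 7767 ± 1799 normalized reads, and over the 3 PWS lines to 3.05 ± 1.93 (SD, n = 3 each), which checks the labels. Normalized reads are counts divided by a size factor for each library. All 6 beta-cell markers looked for were found, with a summed level of 1.90e+06 to 3.33e+06 normalized reads in control lines and 2.05e+06 to 2.84e+06 in PWS lines, nearly all from Mir375, Mir7a1 and Mir7a2. Gcg, Sst and Ppy, which mark other islet cells, were at 0 in every line. The summed acinar markers stayed at or below 15.4 and muscle at or below 2.61. Blood markers summed to 44.3 to 73.2 in control and 43.1 to 76.5 in PWS lines. Endothelial and mesenchymal markers summed to 32.7 to 63.0 in control and 64.1 to 74.2 in PWS lines, higher in every PWS line than in every control line, and their part in the results was not tested.

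No C/D snoRNA outside the domain was called higher or lower in PWS lines. limma called 0 of the 82 rows that reached a mean of 5 normalized reads, where 1.28% of all 4292 genes tested were called at an adjusted p under 0.1. The smallest limma adjusted p among the 82 was 0.831. At an unadjusted p under 0.05 limma had 2 of the 82, both lower in PWS lines and both copies of SNORD36, against 5.96% of all genes in either direction and 3.80% lower. On the recovered reads edgeR called 0 of the 82, against 1.37% of all genes called, and DESeq2 called 0, against 1.35% called. At an unadjusted p under 0.05 edgeR had 2 of the 82 and DESeq2 had 0. No share over all genes was taken at that threshold for these tests, so these counts have no background beside them. In such bulk libraries fewer cells that hold an RNA and less of it per cell cannot be told apart.

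The fitted differences lay close to 0 in both directions. Of the 82 rows, 43 had a higher and 39 a lower fitted value in PWS lines. Their median log2 fold change, PWS minus control, was 0.023, with quartiles of -0.15 and 0.16 and a range of -0.90 to 0.64. Over all genes tested the median was 0.0048. Among rows averaging 100 normalized reads or more it was 0.03 for 73 C/D snoRNA rows and -0.12 for the 530 other genes, those of the PWS domain included, of which 351 had a lower fitted value.

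The data bounded most of these differences. For 71 of the 82 rows (86.6%) the 95% interval of the log2 fold change from limma lay within -1 and 1, that is, within a 2-fold change either way, and for all genes tested this held for 22.3%. These snoRNAs are read more deeply than most genes, so the like comparison is among rows averaging 100 normalized reads or more. There the interval lay within those limits for 67 of 73 C/D snoRNA rows (91.8%) and 390 of 530 other genes (73.6%). For 31 rows with a mean of at least 1000, the intervals ran from -0.98 at the lowest to 0.98 at the highest. The 11 rows with wider intervals included SNORD18 (ENSRNOG00000052983), Snord4a, SNORD96, Snord11, Snord88a, 2 SNORD36 copies and Snord23, the sparsest row tested. The median interval reached 0.56 to either side of the estimate, so that at this width a fitted difference smaller than that would not leave out 0.

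**Figure D1:**
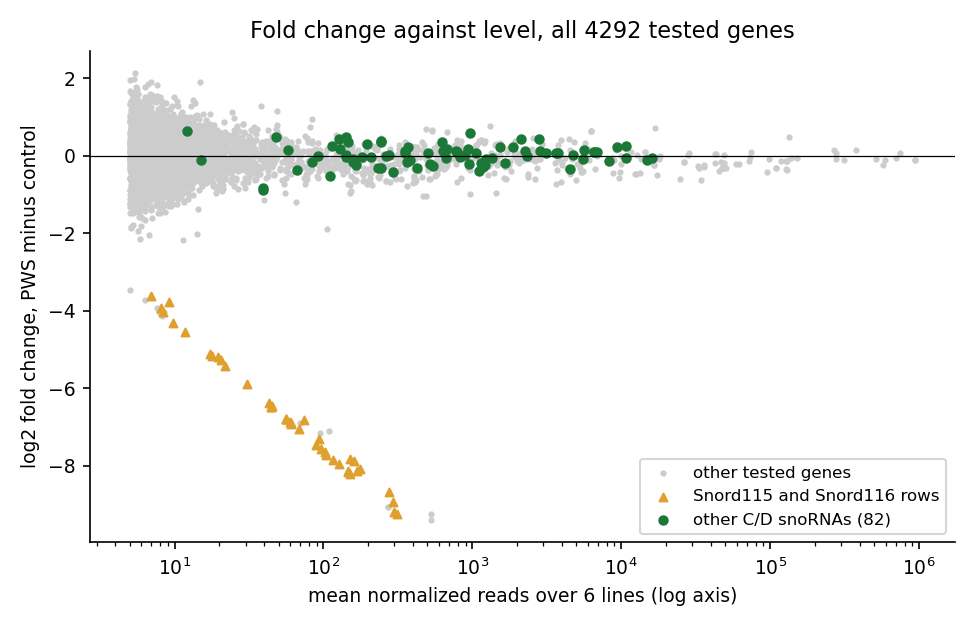
The log2 fold change (PWS minus control, vertical axis) is plotted against the mean normalized reads over 6 lines (logarithmic horizontal axis) for 4292 tested genes. The 82 C/D snoRNA rows outside the domain (green) lie between -0.90 and 0.64, while the tested Snord115 and Snord116 rows (orange triangles) lie far below 0.

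Summed over all 89 rows, these snoRNAs had 152281, 168417 and 164681 normalized reads in control lines 5-9, 2 and 16. The sums were 156802, 142142 and 202101 in PWS lines 3, 19-1 and 19-4. Line 19-4 was the highest and its sister subclone 19-1 the lowest of all 6, so the groups overlapped. The mean was 161793 ± 8447 in control and 167015 ± 31257 in PWS lines (SD, n = 3 each), a ratio of 1.03, or 0.05 on the log2 scale, and without line 19-4 the log2 ratio was -0.11. The 7764 normalized reads of Snord115 and Snord116 lost in PWS lines had been 4.58% of the sum of these and the other C/D snoRNAs in controls. As a share of all reads the 89 rows took 1.51% ± 0.191 in control and 1.67% ± 0.380 in PWS lines (SD, n = 3 each). H/ACA snoRNAs, the other large class, which guide pseudouridylation, summed to 4899 ± 578 and 4717 ± 393 (SD, n = 3 each).

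The reads were concentrated in few snoRNAs. The 10 rows with the most reads held 58.4% of the control sum, and the following values are reads per gene row, not per length. Of the 89 rows, 4 had no read in any line, a count that allows up to 3 reads among the 67377309 of the 6 libraries. These are copies of SNORD22, SNORD24, SNORD29 and SNORD36. Another 3 rows fell under the filter, Snord8 with 23 reads in all, a further SNORD22 copy with 4 and Snord123 with 2.

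Among guides of the 18S rRNA, the small subunit RNA, 15 of 23 tested rows had a higher and 8 a lower fitted value in PWS lines, with a median log2 fold change of 0.07 and no call. Snord110 (ENSRNOG00000054739) had 14761, 16791 and 17105 normalized reads in control lines 5-9, 2 and 16, and 13994, 12294 and 21178 in PWS lines 3, 19-1 and 19-4. The PWS lines fell to both sides of the controls, with line 19-4 the highest and line 19-1 the lowest of the 6. Its log2 fold change was -0.07 ± 0.23 (SE, limma adjusted p = 0.972).

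Snord57 (ENSRNOG00000056237) lies with Snord110 inside Nop56, the gene for a core protein of the C/D particle itself. It had 16745, 14638 and 15328 normalized reads in the control lines and 14892, 12642 and 15708 in the PWS lines, in the same order of lines. The groups overlapped, and the log2 fold change was -0.12 ± 0.21 (SE, limma adjusted p = 0.950). Although these snoRNAs share a host, line 19-4 exceeded line 19-1 by 1.72-fold in Snord110 and by 1.24-fold in Snord57.

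Snord45c, inside Rabggtb, was the third 18S guide among the most abundant rows. It stood at 9624, 10229 and 9453 normalized reads in control lines and at 10615, 9969 and 14543 in PWS lines. The groups overlapped, line 19-4 being the highest (log2 fold change 0.24 ± 0.22 SE, limma adjusted p = 0.887, and 0.08 without this line). Snord4a, inside the ribosomal protein gene Rpl23a, had the opposite sign, with 369, 311 and 304 normalized reads in control lines and 345, 268 and 153 in PWS lines. Line 19-4 was the lowest of the 6 here (log2 fold change -0.43 ± 0.31 SE, limma adjusted p = 0.876, and -0.10 without this line).

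Among guides of the 28S rRNA, the large subunit RNA, 18 of 35 tested rows had a higher and 17 a lower fitted value, with a median log2 fold change of 0.02 and no call. SNORD30 (ENSRNOG00000061138) was the most abundant. It had 11203, 10708 and 10997 normalized reads in control lines and 11003, 9490 and 11206 in PWS lines. Apart from the lower value of line 19-1 the lines were nearly level, and the log2 fold change was -0.06 ± 0.20 (SE, limma adjusted p = 0.973). Its 95% interval ran from -0.49 to 0.38.

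SNORD30 shares a RefSeq host, LOC100912041, with SNORD26 and SNORD27. SNORD26, a 28S guide, had 1733, 1601 and 2096 normalized reads in control lines and 2295, 1971 and 3070 in PWS lines. Line 19-1 lay below control line 16, so the groups overlapped (log2 fold change 0.42 ± 0.24 SE, limma adjusted p = 0.860, and 0.24 without line 19-4). SNORD27, an 18S guide of the same host, had a log2 fold change of 0.07.

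Snord91a and SNORD21 had group means close to each other. Snord91a stood between 8545 and 8759 normalized reads in the 3 control lines and at 8241, 6228 and 9421 in PWS lines 3, 19-1 and 19-4, with lines 3 and 19-1 below and line 19-4 above all controls. SNORD21, inside the ribosomal protein gene Rpl5, stood between 5344 and 6033 in control lines and between 4571 and 5880 in PWS lines. Their log2 fold changes were -0.14 ± 0.22 and -0.10 ± 0.22 (SE), with limma adjusted p of 0.934 and 0.955.

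Snord52 had 5366, 7999 and 6506 normalized reads in control lines and 6242, 5969 and 8949 in PWS lines, with the groups overlapping (log2 fold change 0.09 ± 0.24 SE, limma adjusted p = 0.964). All of its 42979 reads were also counted for LOC102549726, whose annotation overlaps it. That gene held 43081 reads in all, so few of its reads were not shared with Snord52. The counts alone do not assign the shared reads to 1 of these genes. SNORD18 (ENSRNOG00000055361) shared its 1224 reads with Gm22571 in the same way. The other 83 rows with reads held the same number of reads whether shared reads were counted or left out.

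SNORD24, assigned by symbol to the ribosomal protein gene Rpl7a, has 2 rows with almost the same number of reads. ENSRNOG00000051436 had 4338, 7799 and 6826 normalized reads in control lines and 4888, 5649 and 9888 in PWS lines. The ratio of this row to ENSRNOG00000052363 stayed between 0.980 and 1.03 in every line. Whether reads were divided between like copies was not tested, so these values are uncertain for each copy. Lines 2, 16 and 19-4 were high and lines 5-9, 3 and 19-1 low, across the genotypes (log2 fold change 0.08 ± 0.29 SE, limma adjusted p = 0.973).

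**Figure D2:**
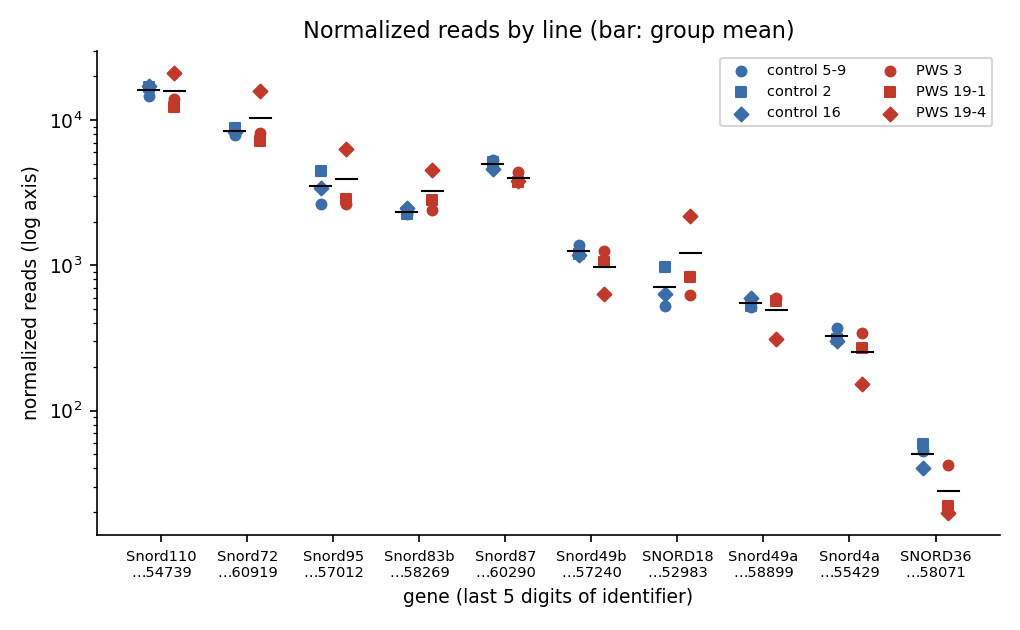
Normalized reads (logarithmic vertical axis) of 10 C/D snoRNA rows are shown for each control line (blue) and PWS line (red), with a black bar at each group mean. Line 19-4 (red diamonds) lies at the top in Snord110, Snord72, Snord95, Snord83b and SNORD18 and at the bottom in Snord49a, Snord49b and Snord4a.

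SNORD36 includes guides of both the 18S and the 28S rRNA, and its numbered members were not separated by symbol. All 6 tested rows had a lower fitted value in PWS lines, with a median log2 fold change of -0.27. The rows hold near-equal numbers of reads in part, 2 pairs of them staying within a ratio of 1.2 in every line. Whether reads were divided between like copies was not tested, so the rows are not taken as separate measurements. The summed SNORD36 rows had 2643, 3471 and 2986 normalized reads in control lines and 2277, 2862 and 2422 in PWS lines. Line 19-1 lay above control line 5-9, so the groups overlapped.

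The smallest unadjusted p-values of all 82 rows belonged to sparse SNORD36 copies. ENSRNOG00000058071 had 53.2, 58.8 and 40.1 normalized reads in control lines and 42.2, 22.1 and 19.8 in PWS lines, from 258 reads in all. PWS line 3 lay above control line 16, and the log2 fold change was -0.90 ± 0.36 (SE, limma adjusted p = 0.831, unadjusted p = 0.0246). ENSRNOG00000060315 had 57.1, 57.5 and 35.5 in control lines and 39.8, 30.5 and 15.8 in PWS lines. Its groups overlapped in the same lines (log2 fold change -0.84 ± 0.38 SE, limma adjusted p = 0.831). Without line 19-4 it was -0.48, and that of ENSRNOG00000058071 was -0.70. The most abundant SNORD36 row, ENSRNOG00000057809, differed less, at -0.25 ± 0.24 (SE, limma adjusted p = 0.889). With 1 line left out its value ranged from -0.36 to -0.16.

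SNORD22, which takes part in the processing of the 18S precursor, had a lower fitted value in PWS lines in all 3 tested rows, with log2 fold changes of -0.32 in each and limma adjusted p of 0.884 to 0.886. Summed over its rows it had 1058, 1035 and 927 normalized reads in control lines and 853, 807 and 751 in PWS lines, so that every PWS line lay below every control line. Their RefSeq host, LOC102550021, was assigned by symbol, and whether all rows lie in it was not examined. In every line 2 of the rows stayed within a ratio of 1.02 to 1.08 of each other. The most abundant row, ENSRNOG00000056397, had 478, 533 and 415 normalized reads in control lines and 422, 384 and 332 in PWS lines, and PWS line 3 lay just above control line 16.

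The snoRNAs without an established target were higher in fitted value in all 6 tested rows, with a median log2 fold change of 0.25 and no call. Another 6 tested rows (Snord2, SNORD39, Snord85, Snord92 and 2 SNORD73 rows) were given no class here, and of these 3 had a higher and 3 a lower fitted value, with a median of 0.03 and no call, so the shared sign depends on which rows were put in the first class. Snord83b, inside the ribosomal protein gene Rpl3, held most of their reads. It had 2241, 2266 and 2468 normalized reads in control lines and 2412, 2820 and 4568 in PWS lines. PWS line 3 lay below control line 16, and the log2 fold change was 0.44 ± 0.26 (SE, limma adjusted p = 0.860). Without line 19-4 it was 0.17. The SNORD83 rows, assigned by symbol to Ddx39b, had log2 fold changes of 0.23 and 0.26. Snord23 had 82 reads in all and only 2 of them in line 2, and its value of 0.64 is the least precise.

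The guides of the short rRNA that pairs with the 28S rRNA differed in direction. SNORD96 had 113, 99.4 and 140 normalized reads in control lines and 148, 143 and 208 in PWS lines, all PWS lines above all controls (log2 fold change 0.49 ± 0.29 SE, limma adjusted p = 0.860, and 0.32 without line 19-4). Snord71, inside Ap1g1, had 605, 540 and 638 in control lines and 566, 467 and 446 in PWS lines, with line 3 above line 2 (log2 fold change -0.27 ± 0.25 SE, limma adjusted p = 0.889). Snord67, a guide of the U6 spliceosomal RNA, had 82.4 to 92.6 in control lines and 56.7 to 101 in PWS lines (log2 fold change -0.17 ± 0.31 SE, limma adjusted p = 0.950). Snord2, inside the translation factor gene Eif4a2, lay between 3336 and 4331 normalized reads in all 6 lines (log2 fold change 0.07 ± 0.22 SE, limma adjusted p = 0.970).

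**Figure D3:**
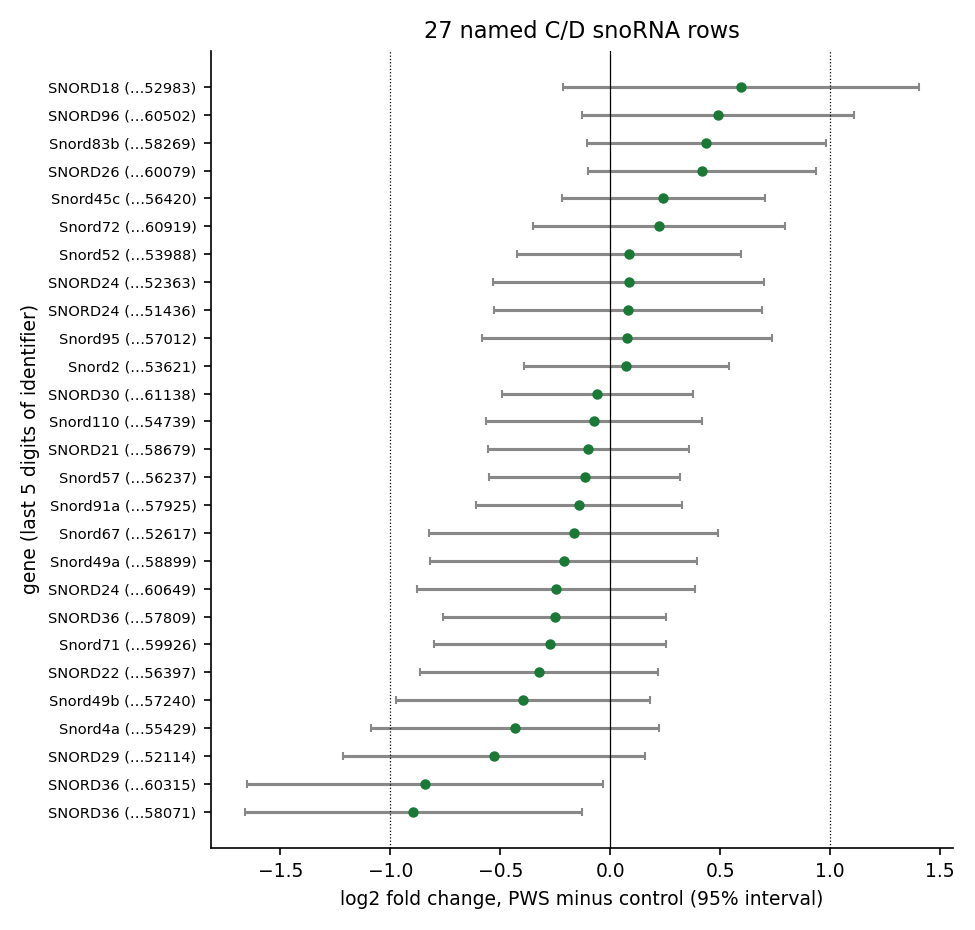
The log2 fold change (PWS minus control) of 27 named rows is plotted with its 95% interval from limma, and dotted lines mark a 2-fold change. Only the intervals of 2 sparse SNORD36 copies leave out 0, and neither was called after adjustment over all genes.

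The groups did not overlap in few rows. All PWS lines lay above all control lines in 3 of the 82 rows (3.66%), where 4.87% of all genes tested did so, and below them in 3 (3.66%), where 6.29% did. The higher rows were Snord65, SNORD96 and Snord11, and the lower ones Snord87 and 2 SNORD22 copies. Except for SNORD96, these rows and Snord37, Snord88a, SNORD27, SNORD83 and Snord23 were named after their values were seen.

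Snord65, an 18S guide, had 174, 163 and 187 normalized reads in control lines and 220, 210 and 221 in PWS lines (log2 fold change 0.31 ± 0.26 SE, limma adjusted p = 0.887). Snord87, a 28S guide, was the most abundant row without overlap. It had 5285, 5162 and 4616 in control lines and 4416, 3722 and 3823 in PWS lines, a log2 fold change of -0.33 ± 0.21 (SE, limma adjusted p = 0.860). Its interval ran from -0.79 to 0.12, and the gap between line 3 and line 16 was small beside the spread within each group.

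Line 19-4 stood at an end of the 6 lines more often than any other. It was the highest of the 6 lines in 30 of the 82 rows and the lowest in 22, while line 19-1 was the highest in 2 and the lowest in 19. Line 16 was at an end of these 82 rows least often, the highest in 6 and the lowest in 4. Over all 4292 genes tested line 19-4 was also most often at an end, the highest in 915 and the lowest in 886, followed by line 2 with 806 and 954. Over 255 miRNA rows it was the lowest more often than any other line. Across rows, the SD of the log2 difference between the subclones 19-4 and 19-1 was 0.53, against 0.30 between lines 3 and 19-1. Among controls it was 0.31 between lines 16 and 5-9 and 0.47 between lines 2 and 5-9. Over all genes tested the SDs of these 4 pairs were 0.93, 0.78, 0.83 and 1.03, in the same order. The coefficient of variation between lines had a median over the C/D snoRNA rows of 13.1% in the control and 19.0% in the PWS group. It was larger in the PWS group for 54 of 82 rows, and was not taken for other genes. Line 19-4 was also the library with the fewest reads, followed by line 2, and whether depth had a part in this was not tested.

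**Figure D4:**
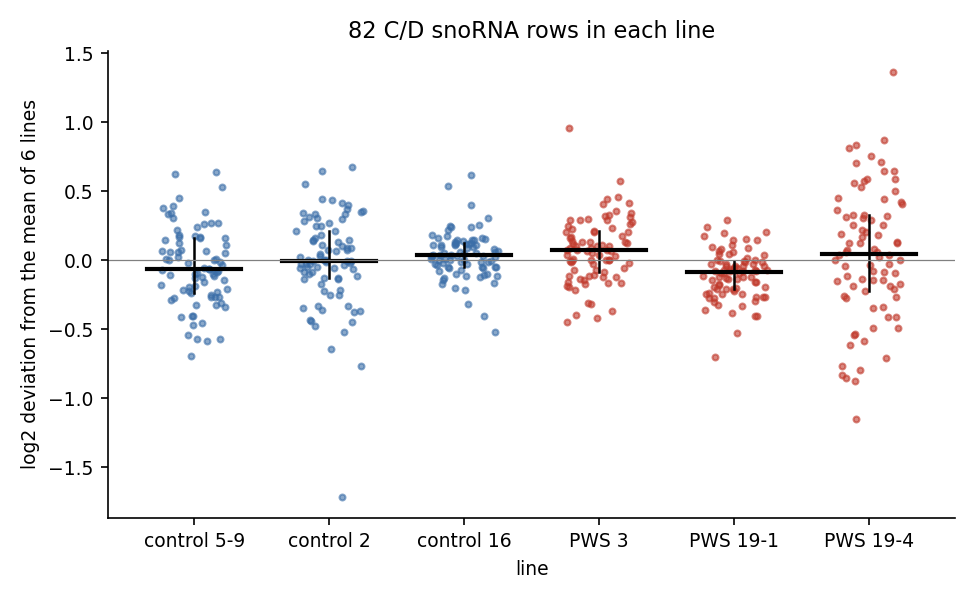
For each line, 82 points show the log2 deviation of a C/D snoRNA row from its mean over the 6 lines, with a bar at the median and a vertical line from the lower to the upper quartile. The medians lie between -0.08 and 0.07 in every line, and the points of line 19-4 are spread from -0.22 to 0.33 between quartiles, the widest of the 6.

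Line 19-4 differed from its sister subclone mainly upward in the abundant snoRNAs. Of the rows averaging 1000 normalized reads or more, 26 of 31 were higher in line 19-4 than in line 19-1, with a median log2 difference of 0.37. Between 100 and 1000 it was 22 of 42, with a median of 0.02, and under 100 it was 3 of 9, with a median of -0.24. Line 3 exceeded line 19-1 in 66 of the 82 rows, with a median of 0.17, against 51 rows and a median of 0.13 for line 19-4. In the rows averaging 1000 or more, line 3 exceeded line 19-1 in 24 of 31, also with a median of 0.17. Among the other small RNAs of the same libraries line 19-4 was more often below line 19-1, in 175 of 255 miRNA rows with a median of -0.28 and in 24 of 42 H/ACA rows with a median of -0.16.

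The 28S guides Snord72 and Snord95 and a SNORD18 copy stood highest in line 19-4 relative to line 19-1 among rows with a mean of at least 100. Snord72, inside the ribosomal protein gene Rpl37, had 15842 normalized reads in line 19-4, against 7199 in line 19-1, 8099 in line 3 and 7887, 8850 and 8340 in the control lines. The other 5 lines were close together, and line 19-4 was 2.20-fold above line 19-1. The log2 fold change of the groups was 0.22 ± 0.27 (SE, limma adjusted p = 0.909) with all lines and -0.13 without line 19-4.

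Snord95, inside Rack1, the gene for a ribosomal scaffold protein, had 6327 normalized reads in line 19-4 and 2869 and 2648 in lines 19-1 and 3. Control line 2 was also high at 4485, above lines 5-9 and 16 at 2663 and 3426. The log2 fold change was 0.08 ± 0.31 (SE, limma adjusted p = 0.975), and without line 19-4 it was -0.32. SNORD18 (ENSRNOG00000052983) had 2179 normalized reads in line 19-4, 828 in line 19-1 and 621 in line 3, with 522, 978 and 637 in the control lines. Its log2 fold change of 0.59 ± 0.38 (SE, limma adjusted p = 0.860) was 0.06 without line 19-4. Snord37 and Snord88a, also 28S guides, were 2.01-fold and 2.17-fold higher in line 19-4 than in line 19-1.

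Other snoRNAs stood low in line 19-4. Snord49a had 310 normalized reads there, against 565 and 597 in lines 19-1 and 3 and 516, 523 and 601 in control lines. Snord49b had 637 there, against 1054 and 1253 in the other PWS lines and 1371, 1192 and 1176 in control lines. These 28S guides and Snord65 lie within the RefSeq span of Trpv2, yet Snord65 was level between the subclones, at 221 and 210. Without line 19-4 the log2 fold change of Snord49a was 0.09 in place of -0.21 ± 0.29 (SE, limma adjusted p = 0.918), and that of Snord49b was -0.11 in place of -0.40 ± 0.27 (SE, limma adjusted p = 0.874).

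The sparse SNORD24 row ENSRNOG00000060649 and a SNORD29 row were low in line 19-4 as well. The SNORD24 row had 111 normalized reads there and 191 in line 19-1, and the SNORD29 row (ENSRNOG00000052114) had 59.3 and 99.8. Without line 19-4 the log2 fold change of the groups was -0.04 in place of -0.24 for the SNORD24 row and -0.24 in place of -0.53 for the SNORD29 row. The abundant SNORD24 rows were 1.75-fold and 1.71-fold higher in line 19-4, so rows of one symbol differed between the subclones in opposite directions. Hosts were assigned by symbol. Both rows assigned to Nop56, Gnl3 and Ddx39b were higher in line 19-4 than in line 19-1. Those assigned to Rpl7a, Trpv2, LOC100912041 and LOC102550021 were divided. For Ddx39b, Rpl7a and LOC102550021 the rows share a symbol, and whether they share a host was not examined.

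**Figure D5:**
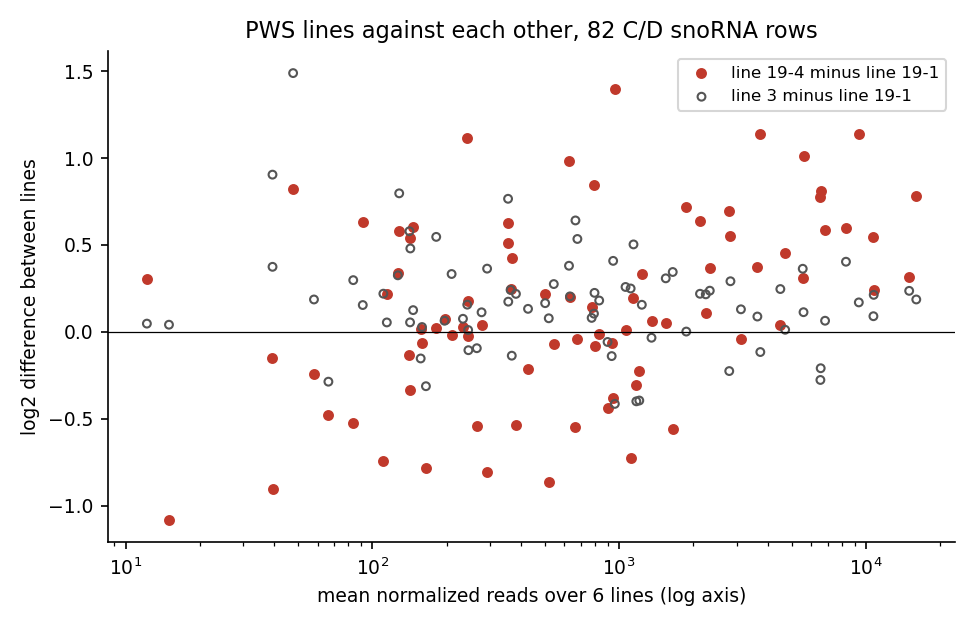
The log2 difference between PWS lines is plotted against the mean normalized reads over 6 lines (logarithmic horizontal axis) for 82 C/D snoRNA rows, as filled points for line 19-4 minus line 19-1 and open circles for line 3 minus line 19-1. At a mean of at least 1000, 26 of 31 filled points and 24 of 31 open circles lie above 0. Over all rows the filled points have an SD of 0.53 against 0.30 for the open circles.

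The host genes themselves could be read only in part. Of the 64 symbols, 39 (47 rows) were found in the RefSeq table for assembly GRCr8, and all 39 lie within the span of another gene. Hosts were looked up by symbol, so the positions of single rows that share a symbol were not compared. The strand was not compared either, so a containing gene is the likely host by position only. The mRNAs of the C/D particle and its assembly factors were present only as fragments in these libraries. Of 12 such genes listed, all 12 had a row and 3 reached the filter, with 0 called. Nop56 had a log2 fold change of 0.15, Nop58 of 0.44 and Nolc1, a nucleolar chaperone of snoRNPs, of 0.59, with limma adjusted p of 0.962, 0.892 and 0.866 and unadjusted p of 0.719, 0.334 and 0.154. Fbl and Snu13 were under the filter, at means of 4.86 and 3.33 normalized reads.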

How the data were processed

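The authors made libraries with a miRNA kit widened to longer fragments, collapsed duplicates with UMI-tools 1.0.0, trimmed with cutadapt 1.18, aligned with Bowtie2 2.3.4.2 and counted with HTSeq 0.11.2. Tool versions and the build Rnor_6.0 come from the submitters' processing notes. The authors deposited a signal per library, normalized reads, that is, counts divided by a DESeq2 size factor. In the main table a read in several genes was added to each (option "all"), and in the other table it was left out ("none"). The deposited mean, log2 fold change and p-value columns of the authors' own DESeq2 comparison were not used. Whole reads were recovered, since 100% of the values above 0 were whole multiples within 0.001.

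limma 3.58.1 (limma-trend, R 4.3.3) was run on log2(normalized reads + 1), which understates changes at low reads, keeping the 4292 genes whose mean reached 5, with Benjamini-Hochberg adjustment over all of them and calls at an adjusted p under 0.1. Intervals cover 95%. Alternatives included on recovered reads limma-voom, DESeq2 1.42.0 and the quasi-likelihood test of edgeR 4.0.16, other pseudocounts, filters and scalings, the table "none", the replicate block, averaged subclones and each line left out. The limma-trend test alone was checked on simulated data, drawn as independent libraries.

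Replicates are clonal lines with 1 library each, and p-values measure the spread between these lines. Sums, medians and line contrasts have no test. The snoRNAs and lists were chosen with earlier results of these data known. Rows named were the 10 with the highest control mean, the 5 with the smallest p, the 3 highest and 3 lowest in fold change and in line 19-4 against 19-1 at a mean of at least 100, and the most abundant of each target class. Target classes are background knowledge by snoRNA number. Marker lists covered beta-cells, other islet cells, acinar, muscle, blood, endothelial and mesenchymal cells, and liver, whose 1 listed marker had no row. Sequences and coordinates are not given.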

Additional observations from a re-analysis of the deposited data

How the results depend on the processing

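No C/D snoRNA row was called in any of 23 alternative fits, and the smallest adjusted p among them was 0.329 by limma, without PWS line 3, against 0.831 with all lines. With the replicate number as a block, 0 were called by limma, with 2 at an unadjusted p under 0.05. No share over all genes was taken in that fit, so these counts have no background beside them. The correlation of deviations between same-numbered lines was 0.414, 0.218 and -0.0574 for numbers 1, 2 and 3. Differently numbered lines were not compared, so these values cannot decide whether the numbers pair the lines. The median log2 fold change lay between -0.013 and 0.099 with single lines left out, 0.099 being the value without line 19-1, and was -0.018 without lines 2 and 19-4, an alternative chosen after seeing the data. Upper-quartile scaling moved the median over all genes from 0.0048 to 0.064 and that of the C/D snoRNAs to 0.088. The log2 ratio of the sums ranged from -0.11 to 0.15 with 1 line left out, the lowest without line 19-4.

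Of 593 values of the 27 named rows under alternatives, 566 kept their direction and 0 were called. SNORD30 turned to 0.0070 with upper-quartile scaling, Snord110 to 9.5e-05 in edgeR and SNORD24 (ENSRNOG00000052363) to -0.00070 with lines 19-1 and 19-4 averaged. Without lines 2 and 19-4 the log2 fold change was -0.087 for Snord72, -0.050 and -0.049 for the abundant SNORD24 rows ENSRNOG00000051436 and ENSRNOG00000052363, 0.047 for SNORD24 ENSRNOG00000060649, 0.060 for Snord49a, -0.13 for Snord95, 0.018 for Snord67 and -0.018 for Snord2. With 1 line left out it ranged from -0.30 to 0.089 for Snord110, -0.18 to -0.023 for Snord57, -0.10 to 0.018 for SNORD30, -0.27 to 0.025 for Snord91a, -0.13 to 0.44 for Snord72 and -0.099 to 0.23 for Snord52. It ranged from -0.22 to 0.28 and -0.22 to 0.31 for the abundant SNORD24 rows, -0.17 to 0.014 for SNORD21, -0.38 to 0.091 for Snord49a, -0.32 to 0.31 for Snord95, -0.35 to 0.059 for Snord67 and -0.037 to 0.15 for Snord2. Where other values changed sign, the cause was not tested. Snord52 could not be tested with shared reads left out.

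Intervals reached from -1.66 to 1.71 in the 9 rows with a mean under 100, from -1.21 to 1.40 in the 42 with a mean of 100 to 1000 and from -0.98 to 0.98 in the 31 above. The part of depth in this was not tested.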
